A study of Mus musculus with 21 samples.

Results

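In the nuclei of resting muscle fibres, 4141 of 41411 accessible regions carried the least ATAC-seq signal, and these are the regions described here. ATAC-seq marks open chromatin by the DNA that a transposase can reach. The regions were those listed under a false discovery rate (FDR) of 0.05 in at least 1 comparison of exercised with sedentary muscle, each counted once and ranked by the sedentary concentration, of which the lowest 10% was kept. Concentration gives the mean of a group's normalised reads over a region on the log2 scale, not divided by width. Because the sedentary level chose these regions and is also part of every comparison, their levels and directions are descriptions and carry no test.

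The mice were wild-type C57/Bl6 males aged 22 to 26 weeks, and nuclei were taken from quadriceps with beads against PCM1, a protein found at the nuclei of muscle fibres. The 21 samples formed 7 groups of 3, namely sedentary mice without training or exercise, and untrained or trained mice killed 0, 6 or 72 h after an exhaustive treadmill run. Trained mice had run voluntarily on wheels for 12 weeks, and since a group of trained mice at rest was not part of the design, effects of training and of the bout cannot be told apart in trained muscle. Only group means were in the tables used here, so no spread between replicates and no depth per sample can be given, and the untrained 72 h comparison listed 0 regions. All 5 other comparisons share the same sedentary samples. Among markers of cell types, the 23 listed promoter regions of 12 myofibre marker genes had a median sedentary concentration of 12.1, against 10.7 for all 7338 listed promoter regions. Lists of markers of immune cells, of satellite cells, of fibroblasts, of endothelium with smooth muscle, and of glia with tenocytes had 1 to 3 listed promoter regions each, with medians of 7.8 to 9.2. Only regions listed as changed enter these medians, so they do not measure the purity of the nuclei.

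Closed chromatin that opens on a stimulus often lies far from promoters, in enhancers, where sequence-specific factors bind. AP-1, a dimer of Fos and Jun proteins, is made rapidly after contraction or stress. Its motif was searched here as TGANTCA, where N is any base, so TGATTCA and TGAATCA also count as matches. CREB, which is activated by cyclic AMP and calcium signals, binds the cyclic AMP response element (CRE) TGACGTCA, and heat shock factors bind repeats that contain TTCNNGAA. The windows printed here show members that the results turn on and were chosen after their values were seen. Each is the 200 bases centred on a region in GRCm39, in lower case, with exact matches to these 3 motifs on either strand in capitals.
Hsph1 (intron, rose at 0 h in untrained muscle, chr5:149549180-149549379, plus strand): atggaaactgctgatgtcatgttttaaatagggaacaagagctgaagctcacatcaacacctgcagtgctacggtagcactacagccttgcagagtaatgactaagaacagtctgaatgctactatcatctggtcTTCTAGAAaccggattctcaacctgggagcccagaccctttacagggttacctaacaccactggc
Lpp (intron, rose at 0 h in untrained muscle, chr16:24252174-24252373, plus strand): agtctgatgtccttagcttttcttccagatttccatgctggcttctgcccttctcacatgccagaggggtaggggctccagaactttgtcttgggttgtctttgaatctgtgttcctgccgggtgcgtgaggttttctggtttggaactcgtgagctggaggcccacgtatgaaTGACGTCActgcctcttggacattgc
Ppargc1a (intergenic, rose at 0 h in both states and at 6 h in untrained muscle, chr5:52025682-52025881, plus strand): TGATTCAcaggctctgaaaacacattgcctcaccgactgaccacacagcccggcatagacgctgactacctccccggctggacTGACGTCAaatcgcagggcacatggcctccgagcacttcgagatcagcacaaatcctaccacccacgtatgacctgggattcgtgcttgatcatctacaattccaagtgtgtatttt
Ppp1r12a (intergenic, rose in all early groups, chr10:107902191-107902390, plus strand): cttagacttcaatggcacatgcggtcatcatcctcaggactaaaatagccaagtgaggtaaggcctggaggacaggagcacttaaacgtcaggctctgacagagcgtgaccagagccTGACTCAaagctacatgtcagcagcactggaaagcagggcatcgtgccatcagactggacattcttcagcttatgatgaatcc
Hs6st1 (intergenic, highest at 6 h in untrained muscle, chr1:35943190-35943389, plus strand): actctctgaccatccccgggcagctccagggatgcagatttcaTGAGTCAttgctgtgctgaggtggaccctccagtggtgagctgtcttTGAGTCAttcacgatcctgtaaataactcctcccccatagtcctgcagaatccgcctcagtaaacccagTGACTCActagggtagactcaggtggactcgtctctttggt
Tmx1 (intergenic, highest at 6 h in untrained muscle, chr12:70471259-70471458, plus strand): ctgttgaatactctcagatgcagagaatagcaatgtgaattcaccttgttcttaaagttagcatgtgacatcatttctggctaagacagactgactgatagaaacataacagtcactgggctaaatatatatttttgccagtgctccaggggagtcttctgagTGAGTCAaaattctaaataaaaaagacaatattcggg
Olfml3 (intergenic, lowest of all at rest, chr3:103603048-103603247, plus strand): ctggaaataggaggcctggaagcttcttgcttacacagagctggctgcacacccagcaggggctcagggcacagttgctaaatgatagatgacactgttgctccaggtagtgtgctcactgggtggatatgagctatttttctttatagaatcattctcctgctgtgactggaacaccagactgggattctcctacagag
Htr2a (intergenic, still higher at 72 h in trained muscle, chr14:74665759-74665958, plus strand): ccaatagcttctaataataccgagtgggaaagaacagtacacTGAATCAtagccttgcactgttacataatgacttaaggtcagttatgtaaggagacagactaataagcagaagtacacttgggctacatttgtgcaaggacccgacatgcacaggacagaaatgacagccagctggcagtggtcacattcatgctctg
Tns1 (intergenic, fell in all early groups, chr1:73716123-73716322, plus strand): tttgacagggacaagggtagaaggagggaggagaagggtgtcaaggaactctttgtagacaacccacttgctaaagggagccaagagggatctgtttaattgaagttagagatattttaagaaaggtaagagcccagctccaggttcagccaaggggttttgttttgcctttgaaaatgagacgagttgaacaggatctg

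Windows near Hs6st1 and Tmx1 held 3 and 1 AP-1 matches, the Lpp window held a CRE, the Ppargc1a window held both, and the Hsph1 window held TTCTAGAA. No match to the 3 motifs lay in the windows of Olfml3 and Tns1, which says only that these letters are not in those bases. A member is named by the protein-coding gene with the nearest start site in GENCODE M39, which can be far away, and each value printed beside a gene belongs to 1 of its regions. Intergenic, or between genes, means outside protein-coding genes, so such a region may lie in a gene of another type.

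At rest these regions ranged from a concentration of 4.17, about 17.9 normalised reads, to 7.51, about 183 reads, with a median of 6.99 or 127 reads. The other 37270 regions had a median of 549 reads. Reads were counted over the whole region, so wide regions rank higher, and the members had a median width of 361 bp against 616 bp for the others. Per kilobase of width the median log2 level was still lower, at 8.30 against 9.93, and 71.7% of the members were also in the lowest 10% when regions were ranked per kilobase. The lowest of all were a pair of regions near Olfml3, which encodes a secreted olfactomedin-like protein, at 17.9 and 19.1 reads, and a region near Hs6st1, a heparan sulphate sulphotransferase, at 19.1 reads. At the limit, regions near Myef2l, Lacc1 and Arhgap28 were just inside and regions near Tmem100, Spon1 and C1qtnf6 just outside, all at 183 normalised reads.

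Among the members listed in a comparison, most were higher after exercise at 0 and 6 h and most were lower at 72 h. In untrained muscle at 0 h, 1875 members were listed, of which 1442 were higher and 433 lower than in sedentary muscle. Over all 41411 regions 51.1% were listed in this comparison, 7.91% higher and 43.1% lower. In trained muscle at 0 h, 2425 of 2887 listed members were higher, where 82.3% of all regions were listed, 10.8% higher and 71.5% lower. Most listed regions were thus lower at 0 h, while most listed members were higher.

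At 6 h in untrained muscle 2243 of 2310 listed members were higher, and 20.2% of all regions were listed, 9.99% higher and 10.2% lower. In trained muscle at 6 h the count was 902 of 1055, with 28.4% of all regions listed, 3.05% higher and 25.4% lower. At 72 h in trained muscle only 73 members were listed, 23 higher and 50 lower, beside 6.34% of all regions, 0.0652% higher and 6.27% lower. Losses therefore outnumbered gains among the members at 72 h, unlike at 0 and 6 h.

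As a share of listed members, gains made up 76.9% (95% Wilson interval 74.9 to 78.8) at 0 h and 97.1% (96.3 to 97.7) at 6 h in untrained muscle. In trained muscle they made up 84.0% (82.6 to 85.3) at 0 h, 85.5% (83.2 to 87.5) at 6 h and 31.5% of 73 at 72 h. These intervals cover counting error over regions only, and regions are not replicates. Among the other regions the gained share was 9.52, 6.53, 31.3, 3.37 and 0.157% in the order untrained 0 h, trained 0 h, untrained 6 h, trained 6 h and trained 72 h, an order kept for other sets of 5 values. The share fell steeply from the lowest 10% to the next 10%, where it was 18.3, 17.9, 54.3, 13.9 and 0.5%. With the limit at the lowest 20% gains were 45.2 and 49.97% of the listed regions at 0 h in untrained and trained muscle, and with the limit at the lowest 5% they were 79.2% at 72 h. The sedentary level is the baseline of each difference, and a region with little signal at rest that passed into the tables mostly did so through a group in which it was high, so the direction is in part fixed by how the regions were chosen.

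**Figure D1:**
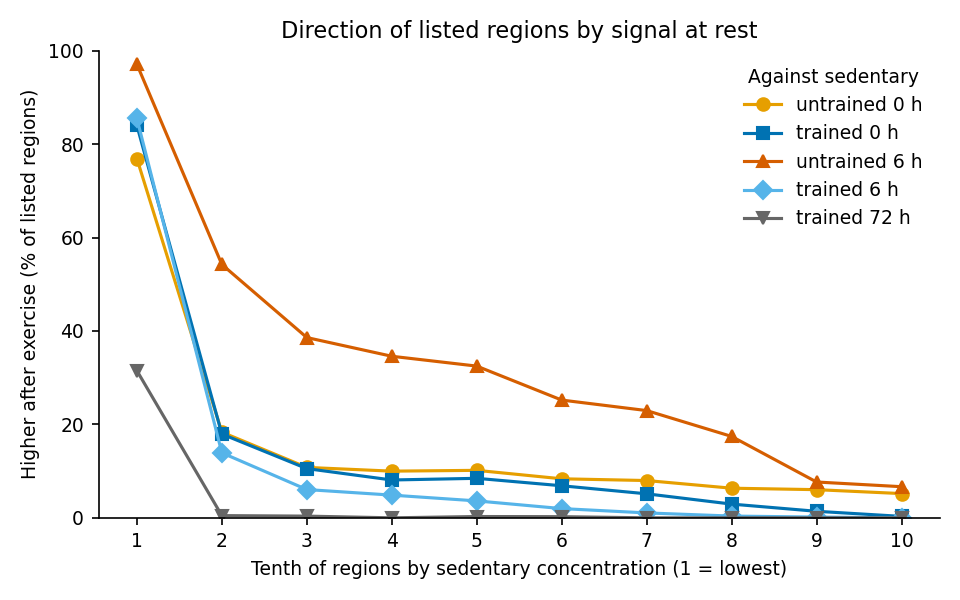
Share of listed regions that were higher after exercise (percent, vertical axis) by sedentary concentration, with regions divided into 10 equal bins (horizontal axis, 1 is the lowest), with a line for each of 5 comparisons with sedentary muscle. The lowest 10% stands at 76.9 to 97.1% at 0 and 6 h and at 31.5% at 72 h, and the next 10% at 0.5 to 54.3%.

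The rises were moderate in most regions and brought them from the bottom of the range to below its middle. Members that gained rose by a median log2 difference of 1.10 in untrained and 1.21 in trained muscle at 0 h, and of 1.42 and 1.16 at 6 h, and of 1.07 in trained muscle at 72 h. Their median concentration after exercise was 7.96 at 0 h in both states, 8.18 in untrained and 7.72 in trained muscle at 6 h. The median of all regions at rest was 8.91, and 3.95, 4.95, 9.99, 0.887 and 0% of gained members passed it in the 5 comparisons. These levels are not divided by width, and members gained in any comparison were narrower, with a median of 384 bp against 576 bp for all regions. A difference of at least 1, a doubling, was reached by 878, 1605, 1820, 606 and 14 gained members. Lost members fell by a median of 0.97, 0.94, 1.05, 0.96 and 0.99 on the log2 scale. They started near the limit, at a median sedentary concentration of 7.30 to 7.41, whereas gained members started at 6.54 to 6.86.

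**Figure D2:**
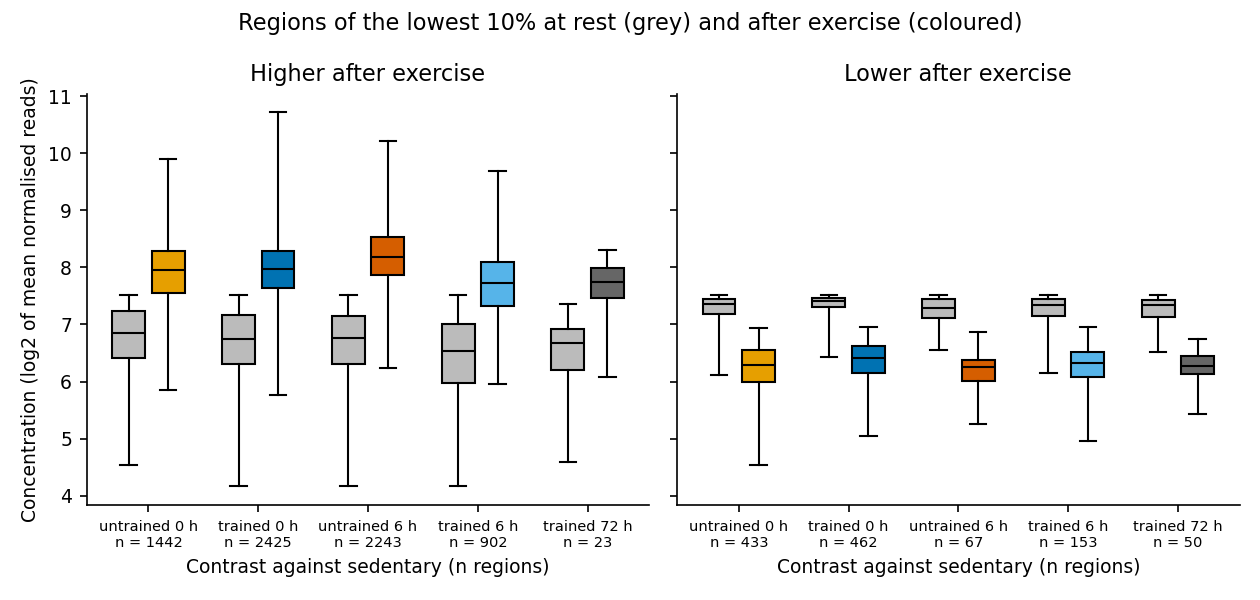
Concentration (log2 of mean normalised reads) of the members at rest in grey and after exercise in colour, for regions that were higher (left) or lower (right) in each comparison. Boxes show quartiles and the median, whiskers the full range over regions, and each region's value is a group mean of 3 samples. Gained regions move from medians of 6.54 to 6.86 up to 7.72 to 8.18.

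Set against each other without the sedentary level, the group means of trained and untrained muscle stood in opposite order at 0 and 6 h, in regions that were still taken by their calls against sedentary muscle. Of 1115 members gained in both states at 0 h, 800 (71.7%) were higher in trained muscle, with a median log2 difference of 0.31 and quartiles of -0.05 and 0.67. Among the 962 other regions gained in both states, 50.5% were higher in trained muscle and the median difference was 0.005. Of 862 members gained in both states at 6 h, 54 (6.26%) were higher in trained muscle and the median difference was -0.68, and 6.69% of the other regions gained in both were higher, with a median of -0.51. These are differences between group means, and whether they exceed the spread between replicates was not tested.

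Between 0 and 6 h levels can be compared only in members that were listed at both times. In untrained muscle 698 members were gained at both times, and 531 of them (76.1%) were higher at 6 h than at 0 h, by a median of 0.38. In trained muscle 700 were gained at both times and 261 (37.3%) were higher at 6 h, with a median difference of -0.17. Few members changed sign over time. In untrained muscle 81 members were lost at 0 h and gained at 6 h, and 19 went the other way. In trained muscle 10 were lost and then gained and 39 gained and then lost. No member was gained at 6 h in one training state and lost in the other. At 0 h 8 members were gained in untrained and lost in trained muscle, and 7 went the other way. Such counts depend on how many members were called, with 2243 gained at 6 h in untrained and 902 in trained muscle. Changes of sign were not counted over all regions.

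Over the 5 comparisons, 3283 members (79.3%) were only ever gained, 658 (15.9%) only lost and 200 (4.83%) gained in one comparison and lost in another. Gains in at least 1 comparison were found for 3483 of the 4141 members and for 7432 of all 41411 regions. A single comparison listed 1601 members, 4 listed 297 and all 5 listed 7. Listing in a single group was the commonest pattern, with 466 members gained only in untrained muscle at 6 h, 429 only in trained muscle at 0 h and 252 only in untrained muscle at 0 h. A further 430 were gained in trained muscle at 0 h and untrained muscle at 6 h, 417 in both states at 0 h, and 268 in all 4 early groups. The commonest loss patterns were 231 members lost only in trained muscle at 0 h, 157 lost in both states at 0 h and 156 lost only in untrained muscle at 0 h. Patterns were counted for members only, so their shares among all regions are not known. Counts for a single group also follow how many members its comparison listed, from 73 in trained muscle at 72 h to 2887 at 0 h. They do not show a response limited to that group. A region not listed in a comparison may have changed there by less than the test could detect, and the comparisons share their controls, so these patterns are counts and no overlap was tested.

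The letters of the windows differed between these patterns. An AP-1 motif lay in 1568 member windows, 37.9% (95% Wilson interval 36.4 to 39.4), against 10.3% of all 41411 windows of the same length. Among the 7432 regions of any level that were gained in at least 1 comparison, 35.7% held the motif. Of those 1568 members, 1526 were gained in at least 1 comparison, as were 3483 of all 4141 members. The share was 74.6% in members gained in all 4 early groups, 62.8% in those gained in trained muscle at 0 h and untrained muscle at 6 h, and 43.8% in those gained only in untrained muscle at 6 h. It was 27.7% in members gained only in trained muscle at 0 h, 24.2% in those gained in both states at 0 h and 18.7% in those gained only in untrained muscle at 0 h. Members lost only in trained muscle at 0 h held the motif in 2.6%. Among the 12 commonest patterns, AP-1 letters were thus most common in members that were gained at both 0 h and 6 h and least common in those that were lost, while the 150 members gained at 6 h alone in both states held them in 30.0%.

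The CRE had another distribution. It was rare, in 71 members or 1.71% against 0.65% of all windows, and 14 members held both motifs. Among members gained only in untrained muscle at 0 h it was found in 9.13%, and among those gained in both states at 0 h in 6%. Among those gained only in trained muscle at 0 h it was found in 0.466%, and among those gained only in untrained muscle at 6 h in 0.215%. The CRE letters were thus most common in members gained in untrained muscle at 0 h. Among the other regions 3.65% of those gained in untrained and 1.67% of those gained in trained muscle at 0 h held it.

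**Figure D3:**
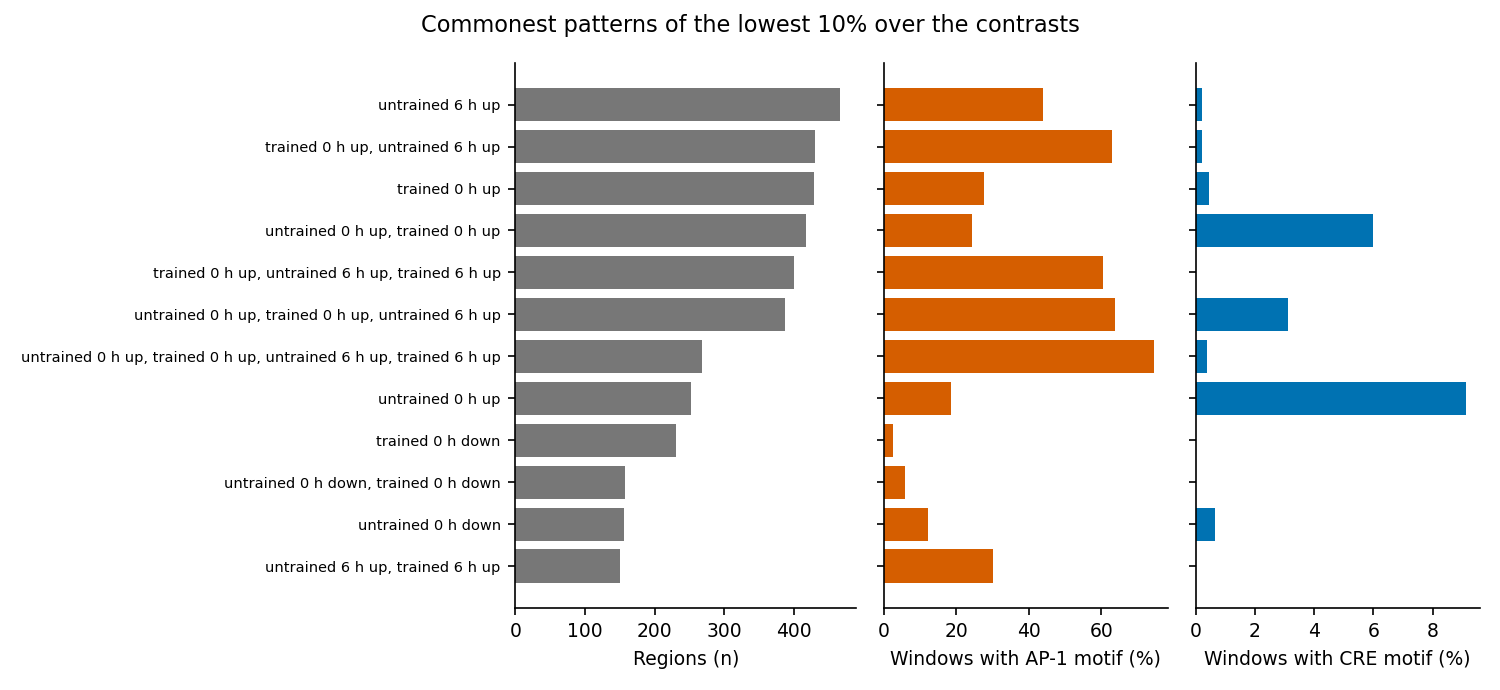
Number of regions (left), percent of 200-base windows with the AP-1 motif (middle) and percent with the CRE motif (right) for the 12 commonest patterns of the lowest 10%, where up and down name the comparisons in which a region was gained or lost. The AP-1 share reaches 74.6% in regions gained in all 4 early groups, and the CRE share 9.13% in regions gained only in untrained muscle at 0 h.

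The AP-1 share differed more between gained and lost regions than between levels at rest. Among regions of 301 to 456 bp, the interquartile range of member widths, 45.2% of 1873 gained members and 42.3% of 537 other gained regions held the motif. Of regions of those widths that were only lost, 8.25% of 206 members and 5.43% of 7344 others held it. Without the limit on width, the gained members held it in 43.0, 49.4, 55.5 and 56.5% of windows in untrained 0 h, trained 0 h, untrained 6 h and trained 6 h, and the other gained regions, which are wider, in 21.5, 33.5, 42.0 and 45.4%. In gained members the matches lay at the centre, in 7.15% of regions in the 20-base bin 10 bp before the centre, and fell to a mean of 0.612% per bin beyond 400 bp. Members that were only lost showed 0.304% per bin in the central 40 bp and 0.593% beyond 400 bp.

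**Figure D4:**
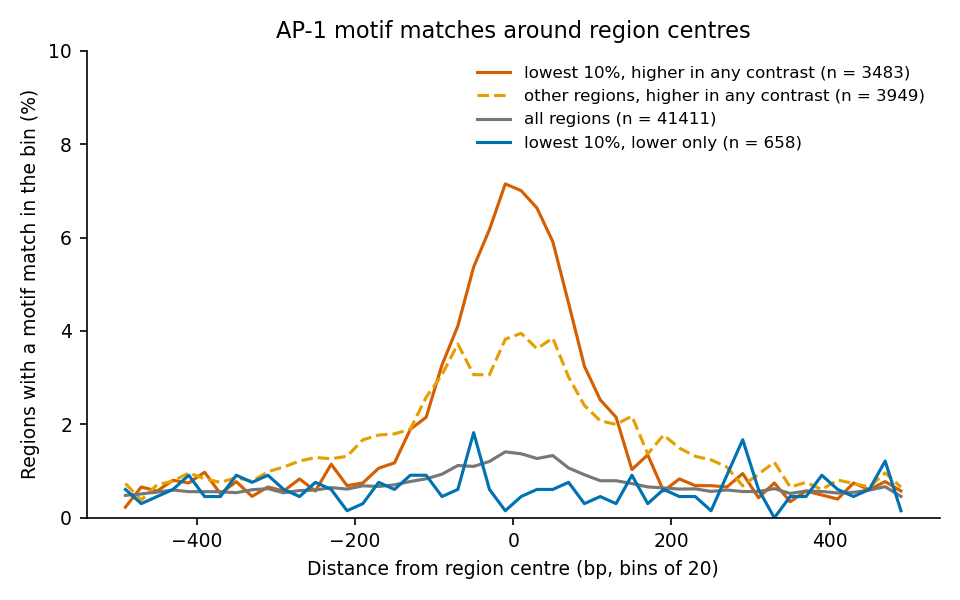
Percent of regions with an AP-1 match in each 20-base bin (vertical axis) by distance from the region centre in bp (horizontal axis), for 4 sets of regions. Regions of the lowest 10% that were gained peak at 7.15% near the centre, other gained regions at 3.95%, all regions at 1.41%, and members that were only lost show no rise at the centre.

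Of the other motifs among the 13 searched, some were more and some less common in members than in all windows. The glucocorticoid receptor half-site pair ACANNNTGT was found in 10.3% of member windows and 6.57% of all windows. The GC box GGGCGG of SP and KLF factors, typical of promoters, was found in 3.96% against 10.7%, and a short form of the CTCF site in 1.91% against 6.74%. These shares were not particular to members. Other regions gained at 0 h in untrained and trained muscle held the glucocorticoid motif in 10.4 and 11.7%. They held the GC box in 4.47 and 3.73% and the CTCF form in 0.763 and 0.982%. Members lost at 0 h held the CTCF form in 3.93 and 8.44%. The muscle E-box CAGCTG was found in 19.0% against 19.9%, and TTCNNGAA in 5.96% against 5.36%. A match describes letters only and says nothing on whether a factor was bound.

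The members lay far from promoters. Only 191 (4.61%, Wilson interval 4.01 to 5.29) were within 1 kb of a start site of a protein-coding gene, against 17.7% of all regions. Another 54.7% lay in introns, 36.5% between protein-coding genes and 4.18% in exons, where all regions had 46.3, 30.9 and 5.02%. The median distance to the nearest start site was 24.2 kb against 13.7 kb for the other regions, and 1278 members (30.9%) lay over 50 kb away. Their median GC content was 48.0% against 50.8%. Among regions of 301 to 456 bp the promoter share was 4.33% for members and 5.74% for the others, so the low promoter share was shared by narrow regions at higher levels. Of the promoter members 81.2% were gained in at least 1 comparison, of the exonic and the intronic members 83.2%, and of the intergenic members 86.0%. Among the other regions these shares were 3.18% in promoters, 7.62% in exons, 12.8% in introns and 12.4% between genes. Within trained muscle at 0 h the gained share of listed members was 75.2% in promoters, 77.7% in exons, 82.4% in introns and 88.0% between genes. The other listed regions had the same order at lower shares, with 1.21, 4.22, 8.05 and 8.64%. At 72 h the 23 gains lay in introns (11) and between genes (12).

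The members were spread over 2774 nearest genes, of which 1959 had a single member and 61 had 5 or more. Of the genes with most members, Ppargc1a had 12 among 32 listed regions, Pde4d 12 among 77 and Lpp 9 among 41. Another 5 had 8 each, namely Bach2 among 21, Esrrg among 19, Myc among 35, Nrip1 among 22 and Pdlim5 among 25, and 11 genes tied at 7.

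Ppargc1a encodes the coactivator PGC-1α, which drives mitochondrial biogenesis. All 12 of its members were gained at 0 h in both states, by a median log2 difference of 1.86 in untrained and 3.14 in trained muscle. Of these, 10 lay in the gene body within 100 kb downstream of the start site, and none of those 10 was listed at 6 h or 72 h. The lowest at rest, in an exon at chr5:51647044-51647826, went from 4.54 to 6.77 in untrained and 8.26 in trained muscle, or from 23.2 to 109 and 307 normalised reads. The other 2, further upstream at -298.1 and -300.5 kb, were gained at 0 h in both states and also at 6 h in untrained muscle, by 2.03 and 1.85, and the first also in trained muscle at 6 h, by 0.96. One of them carries the AP-1 and CRE letters printed above.

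Nrip1, a corepressor of nuclear receptors, and Esrrg, the oestrogen-related receptor gamma that activates oxidative genes, each had 8 members. Of the Esrrg members, 7 were gained in trained muscle at 0 h by 1.07 to 3.03, 4 were gained in untrained muscle at 0 h, and a region at -160.3 kb was lost there by 0.69. Nrip1 had 6 gained in untrained and 3 in trained muscle at 0 h. The Nrip1 region at chr16:76206281-76206578, at -35.5 kb from the start site, stood at 5.25 at rest and rose by 2.08 in untrained and 2.97 in trained muscle at 0 h, and by 2.53 in untrained muscle at 6 h. Pde4d, a phosphodiesterase that breaks down cyclic AMP, had 8 of 12 members gained in each state at 0 h, with the largest rise 2.38. At 6 h 3 Pde4d members were gained and 1 lost in untrained muscle, and 1 was gained and 2 lost in trained muscle.

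Myc, the immediate early transcription factor, had its members between protein-coding genes and up to 676.8 kb from its start site. Of these 8 members, 6 held the AP-1 motif. At 0 h 1 was gained in untrained and 6 in trained muscle, and at 6 h 6 and 5 were gained. The region at chr15:61737991-61738306 was among the largest losses and fell by 2.17 in trained muscle at 0 h. Bach2, a transcriptional repressor, had 2 members gained in untrained and all 8 in trained muscle at 0 h, and 7 and 4 at 6 h.

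Lpp and Pdlim5 encode LIM-domain proteins of focal adhesions and the Z-disc. Pdlim5 had 6 members gained in untrained and 7 in trained muscle at 0 h, by up to 2.31, but 2 in untrained and 0 in trained muscle at 6 h, where 1 region was lost in both states by 1.13 and 1.12. Lpp had 6 and 5 gained at 0 h and 6 and 2 at 6 h.

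The largest single rise at 0 h in untrained muscle was in an intron of Hsph1, which encodes a heat shock protein of the HSP110 family, at chr5:149549087-149549474. Its concentration went from 4.66 at rest to 7.91, and stood at 6.81 in trained muscle at 0 h and 6.96 in untrained muscle at 6 h. Other large rises were those of an intronic Bach2 region at chr4:32314697-32315459 (2.87) and the Ppargc1a intron at chr5:51676440-51677858 (2.57). In trained muscle at 0 h the largest rise was at an intronic region near Rab30, a small GTPase of the Golgi, at chr7:92460952-92461364. It rose by 3.74, against 2.50 in untrained muscle, and was still higher by 2.62 and 1.28 in untrained and trained muscle at 6 h. The Ppargc1a exon followed with 3.73, then the region near Ppp1r12a, the targeting subunit of myosin phosphatase, at chr10:107902109-107902474 with 3.54, and Chmp1b, an ESCRT-III subunit, with 3.29.

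At 6 h in untrained muscle the region with the least signal of all, near Olfml3 at chr3:103602896-103603400, rose most. It had 17.9 normalised reads at rest, 72.1 in trained muscle at 0 h, 430 in untrained and 134 in trained muscle at 6 h. Hs6st1 (chr1:35943086-35943494), Tmx1, a thioredoxin-related protein of the endoplasmic reticulum (chr12:70471159-70471559), and Gatb, a mitochondrial aminoacyl-tRNA amidotransferase subunit (chr3:85189197-85189710), followed with 4.08, 3.91 and 3.82. In trained muscle at 6 h these 4 rose by 2.90, 1.75, 3.07 and 2.13, all less than in untrained muscle. They were picked for their rise in untrained muscle, so this order is in part fixed by that choice. The largest rise in trained muscle at 6 h was instead near Map3k7, the kinase TAK1, at chr4:31945952-31946231, by 3.29 to a level of 7.87, against a level of 7.59 in untrained muscle. Agap1, an activator of Arf GTPase hydrolysis, came next after Tmx1 and Olfml3 with 2.84 at chr1:89329871-89330162.

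Few rises were listed at 72 h. The largest was 1.76, far upstream of the serotonin receptor gene Htr2a at chr14:74665724-74665994, where the rise was 0.88 in trained muscle at 0 h and 1.54 at 6 h. The Map3k7 region stood 1.49 above rest at 72 h and was listed as higher in all 5 comparisons. Regions near Vwa5b1 and Rgs22 followed, the first with a rise of 1.38.

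**Figure D5:**
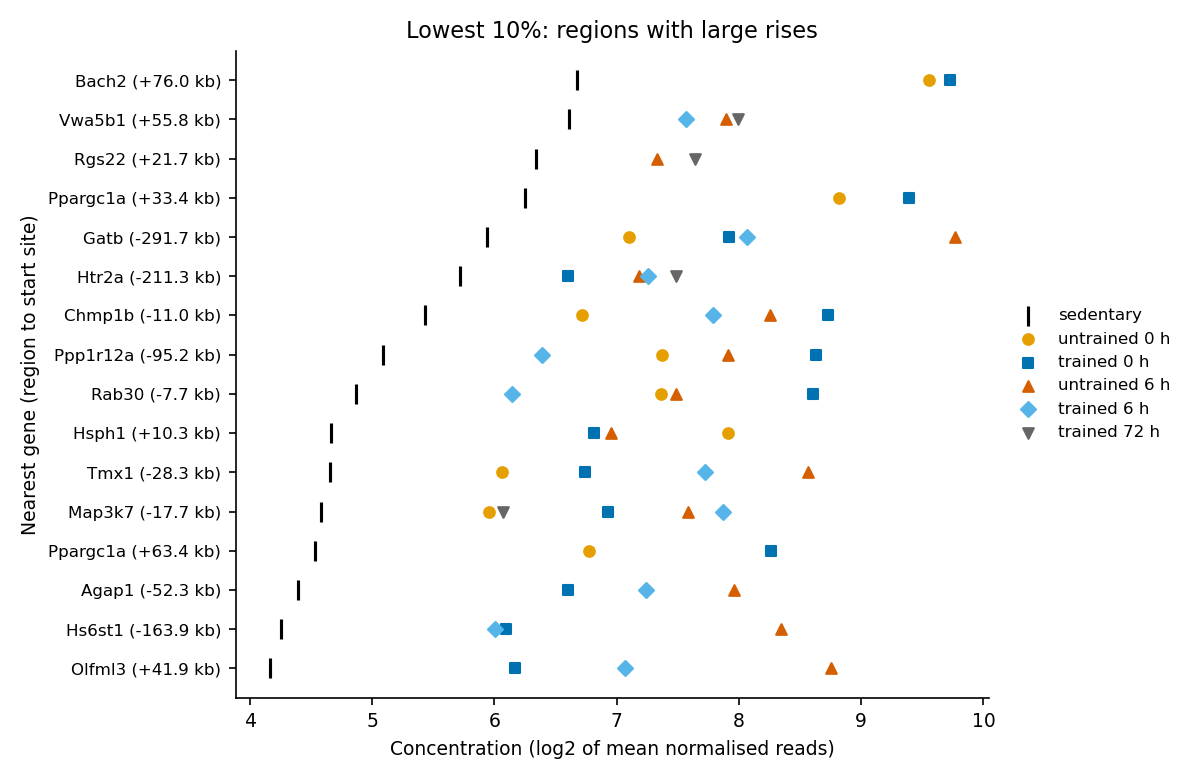
Concentration (log2 of mean normalised reads, horizontal axis) of regions with large rises in any comparison, by nearest gene and distance to its start site in kb, ordered by the sedentary level (black bar). Coloured points are group means of 3 samples and are drawn only where the region was listed. The Olfml3 region moves from 4.17 at rest to 8.75 in untrained muscle at 6 h.

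The largest losses were smaller than the largest gains at each of 0, 6 and 72 h. The rule kept regions low at rest, which have little signal to lose, so this order is in part fixed by it. In trained muscle the other regions fell by up to 3.79, 2.25 and 1.80 at 0, 6 and 72 h. They rose there by up to 3.53, 1.82 and 0.99. In untrained muscle the other regions fell by up to 3.18 and 2.12 at 0 and 6 h, and rose by up to 3.67 and 3.02. At 0 h in untrained muscle an intronic region of Cwc27, a spliceosome-associated gene, at chr13:104889537-104889774 fell by 2.87, and in trained muscle by 1.54. A region near Acaa2, a mitochondrial thiolase of fatty acid oxidation, fell by 2.73 and 2.30. The region 251.2 kb from Tns1, which encodes the focal adhesion protein tensin, at chr1:73715997-73716449 fell by 2.30 and 2.12 at 0 h and by 1.76 and 0.98 at 6 h in untrained and trained muscle. Hgd, an enzyme of tyrosine breakdown (chr16:37408598-37408897), fell by 2.13 in trained muscle.

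At 6 h the largest loss was that of the Tns1 region in untrained muscle and of a region near Upp2, a uridine phosphorylase, in trained muscle. The Upp2 region fell by 1.66 in untrained and 1.75 in trained muscle. A region near Igfbp2, a binding protein of insulin-like growth factors, fell by 1.61 and 1.49, and by 1.12 in trained muscle at 72 h. Flvcr1 fell by 1.54 in untrained muscle, and Dock4, Galntl6 and Higd1c fell by 1.72, 1.57 and 1.53 in trained muscle. At 72 h regions near Rgs6, Ccdc190, Tiparp and Ppm1b fell by 1.36, 1.35, 1.33 and 1.26. The Ccdc190 and Ppm1b regions were higher in untrained muscle at 0 h, by 0.94 and 0.74.

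Among genes grouped by function, members were unevenly spread. Of 167 listed regions of immediate early genes, the transcription factors and regulators induced first after a stimulus, 33 (19.8%) were members, where 10% of all regions are members by the rule. These 33 lay near 10 of the 25 genes of the list, and most were those of Myc (8), Klf6 (6) and Klf4 (5). Of all listed members 76.9, 84.0, 97.1, 85.5 and 31.5% were gained in the 5 comparisons, and the counts of this and the following lists are small and are read against those shares. For immediate early genes gains were 16 of 17 in untrained and 23 of 24 in trained muscle at 0 h, 20 of 20 and 8 of 8 at 6 h, beside 1 gained and 1 lost at 72 h. The Atf3 promoter at chr1:190949839-190950457 went from 5.57 at rest to 6.57 and 7.21 at 0 h and to 8.60 and 7.01 at 6 h in untrained and trained muscle. A Fosl2 region at -99.1 kb from the start site, with an AP-1 match, rose by 2.48 and 2.05 at 0 h. Fosl2 encodes an AP-1 subunit and Atf3 a stress-induced factor of the related ATF family.

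Of 134 regions of regulators of oxidative metabolism, 35 (26.1%) were members, with 24 gained and 3 lost at 0 h in untrained and 26 and 1 in trained muscle. At 6 h 14 were gained and 0 lost in untrained muscle, and 6 and 1 in trained muscle. The count rests on Ppargc1a, Esrrg and Nrip1, which hold 28 of the 35. Glucose and insulin signalling had 31 members among 179 regions, with 9 gained and 5 lost at 0 h in untrained, 16 and 4 in trained muscle, and 20 and 12 gained with 0 lost at 6 h. Regions near Irs2, the insulin receptor substrate, at 362.5 kb and in Grb10, an adaptor that restrains insulin signalling, rose by 3.23 and 2.63 in trained muscle at 0 h. A region near Slc2a1, the glucose transporter GLUT1, rose by 2.59.

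Genes of myofibre growth and atrophy had 18 members of 100 regions, with 15 and 14 gained and 0 lost at 0 h, where 76.9 and 84.0% of all listed members were gained, and 3 and 3 gained at 6 h, where 1 was lost in trained muscle. The region at 47.5 kb from Mstn, the gene of the growth inhibitor myostatin, gained 1.29 in untrained and 2.93 in trained muscle at 0 h, and a region near Foxo1, a driver of atrophy genes, by 2.30 in trained muscle. Z-disc and strain-response genes had 11 members of 50, with 4 and 10 gained at 0 h, 11 and 6 at 6 h and 0 lost. The Xirp2 region at -22.6 kb rose by 2.98 in untrained muscle at 6 h. Heat shock and unfolded protein genes had 8 of 40, with 4 gained in each state at 0 h and 7 and 2 at 6 h, and 0 lost, counts too small to be read apart from the shares over all members.

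Sarcomere and calcium handling genes had few members, 12 of 202 regions (5.9%), and gains equalled losses at 0 h, with 2 of each in untrained muscle and 3 of each in trained muscle, while 8 and 3 were gained and 0 lost at 6 h. Lipid handling had 6 of 65, angiogenesis and hypoxia 12 of 96, the circadian clock 12 of 122 and the neuromuscular junction 7 of 43. In untrained muscle at 0 h gains numbered 0, 4, 2 and 3 in these 4 lists, with 1 loss in each. In trained muscle at 0 h gains numbered 3, 7, 9 and 6, with 1 loss in lipid handling and 0 in the other 3. The markers of other cell types had 1 to 4 members per list, 12 in all, of which none lay in a promoter. The 4 endothelial and smooth muscle members included a Myh11 region that rose by 2.80 in untrained muscle at 6 h, and the glial and tenocyte member, near Sox10, rose by 2.64 there. Members of these lists were also lost, a Dpt region of the fibroblast list at 0 h in both states, 1 of the immune list in trained muscle at 0 h and 1 of the endothelial and smooth muscle list at 72 h. Whether nuclei of other cell types had a part in the gains was not tested.

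Of the promoter members, 155 of 191 were gained in at least 1 comparison and 47 were lost in at least 1. For the 7147 other promoter regions the counts were 227 gained and 6951 lost. The promoters named next were chosen after their values were seen. The promoter region of the proteasome gene Psmd11 (chr11:80321274-80321665) rose by 1.67 in trained muscle at 0 h, by 3.16 in untrained and by 1.52 in trained muscle at 6 h. The Nr4a2 promoter (chr2:57001497-57002629), of an orphan nuclear receptor of the immediate early response, went from 6.64 at rest to 9.04 in untrained muscle at 0 h, the single comparison that listed it. The promoters of Csrp3 and Myoz2, both of Z-disc proteins, were higher in all 4 early groups, by 2.23 and 2.26 in untrained muscle at 6 h and by 1.41 and 1.10 in trained muscle. Mical2, whose product oxidises actin, rose by 1.70 in untrained and 2.35 in trained muscle at 0 h at a region 0.68 kb from a start site.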

How the data were processed

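The submitters' processing notes name Trimmomatic 0.39, Bowtie2 2.4.4, SAMtools 1.15, Genrich 0.6.1, DiffBind 3.4.11, ChIPseeker 1.30.3 and the build GRCm39. Within DiffBind the authors used DESeq2 and listed regions under an FDR of 0.05. The deposited concentrations are log2 group means of normalised read counts, which the authors made from 3 samples per group, so the depth of single samples is unknown. The fold changes, p-values and FDR of the authors' comparisons, and tables of gained or lost regions alone, were not used. Direction is the sign of exercised minus sedentary concentration, and rests on the authors' scaling between groups.

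Regions of 5 tables were joined on identical coordinates (41411 distinct), and the sedentary concentration of a region did not differ between tables. The regions lay on GRCm39, as 15.2% of them overlapped a GENCODE M39 start site there and 2.34% a RefSeq start site on GRCm38, and they were annotated anew with GENCODE M39, the deposited classes serving as an alternative: promoter within 1 kb of a protein-coding start site, otherwise exon, intron or intergenic by midpoint. Only protein-coding genes entered these classes. Windows of 200 bases were searched for 13 motifs on both strands. Python 3.11.15, pandas 2.3.3, numpy 2.4.6 and scipy 1.17.1 were used. The scripts were tested on simulated data.

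The regions, gene lists, motifs and alternatives were chosen with earlier results of these data known. Named regions are, per comparison, the 4 largest rises and 4 largest falls with 1 region per gene and no predicted gene models, the 10 genes with most members (8 described in full, as 11 genes tie at 7 members), up to 3 genes per list, and the regions at the limit, of which some are not reported here. No test was run, since the level that chose the regions enters every comparison and no values per sample were in the tables. The 147 members on chromosome 18 were counted but not printed as sequence.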

Additional observations from a re-analysis of the deposited data

How the results depend on the processing

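Setting the limit at the lowest 5% moved the gained share of listed members to 93.2, 98.4, 99.4, 97.0 and 79.2% in untrained 0 h, trained 0 h, untrained 6 h, trained 6 h and trained 72 h, the promoter share to 3.91%, the median width to 350 bp and the AP-1 share to 48.2%. The lowest 20% gave 45.2, 49.97, 85.4, 51.3 and 8.48%, a median width of 346 bp and an AP-1 share of 24.6%. Gains therefore no longer outnumbered losses at 0 h in either state in the lowest 20%, and at 72 h they did in the lowest 5%. Ranking per kilobase of width gave gained shares of 91.3, 94.6, 98.4 and 89.95% at 0 and 6 h and a median width of 471 bp. Keeping only differences of at least 1 gave 81.3, 88.8, 97.8 and 90.3%, a median width of 376 bp and an AP-1 share of 42.5%. A promoter distance of 3 kb gave a promoter share of 10.9%, and with deposited classes it was 7.66%. Joining regions on 1 base of overlap gave 41410 regions. The AP-1 alternatives were added after seeing the data. No paired analysis was possible because only group means were given, and for the same reason leaving out a replicate was not run. Regions that were never listed were not analysed here, gene names rest on distance alone, and the level of a region grows with its width.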

Other observations

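Members made up 7.20% of the listed regions on chromosome 11 and 12.0% on chromosome 1, the lowest and highest shares among the autosomes, and 8.49% on X. Another member lay within 10 kb of 589 members (14.2%), and any other listed region within 10 kb of 2318 (55.98%), against 62.8% of all regions. Members were 46.9% of the regions gained in any comparison and 2.47% of those lost in any. For 380 of 12013 genes every listed region was a member.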
